A study of Caenorhabditis elegans with 2 samples.

Results

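The genes described here are 37 genes of the cell cycle and of DNA replication, out of 19973 protein-coding genes on the nuclear chromosomes of Caenorhabditis elegans. They were chosen by name and role: cyclins, cyclin-dependent kinases (CDKs) and their inhibitors and activators, the Rb and E2F/DP regulators, the licensing helicase and sliding clamp of replication, mitotic kinases, spindle checkpoint and kinetochore proteins, and activators and the scaffold of ubiquitin ligases. The question was how strongly the T-box transcription factor TBX-8 was found at these genes. ChIP-seq, which sequences the DNA that comes down with a protein, was done with an antibody against GFP on embryos of strain RW10470, whose allele st10470 fuses TBX-8 at its C terminus to TY1, EGFP and 3xFLAG and carries unc-119(+) in an unc-119(ed3) background. All the material was whole embryos of mixed sex and mixed stage, obtained by bleaching eggs, with an age of 2.5 hours and DNA sheared to 200 to 800 bp. There were 2 biological replicates of this 1 group. No untagged or untreated group was analysed here, and the sources used here do not give which cells make the fusion protein. Region lists measure no expression, so the embryos could not be checked against cell type markers, and a region says nothing of whether a gene was on.

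Early C. elegans embryos divide fast, with cycles that alternate between DNA synthesis and mitosis, and later divisions slow as cells leave the cycle and differentiate. Cyclins switch on CDKs, CDC25 phosphatases remove the phosphates that hold CDKs back, and CDK inhibitors of the CIP/KIP family stop cells from entering S phase. The Rb protein restrains E2F/DP, a factor that turns on genes for DNA synthesis, and the anaphase-promoting complex marks cyclins for destruction at the end of mitosis. T-box factors such as TBX-8 bind sites built around the bases GGTGTG, and TBX-8 is known for its part in shaping the embryonic body together with its relative TBX-9.

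Each gene was scored by every region whose summit, the position of highest signal, lay in the gene body or within 2000 bp of a transcript start. The sequences below are the 100 bases on either side of the summit at 5 of the genes, with the build ce11 and the gene's strand. The pcn-1 (chrIV:4049634-4049834, minus strand) and fzr-1 (chrII:9646214-9646414, minus strand) regions were in the authors' thresholded list. Those at cki-1 (chrII:7810914-7811114, plus strand) and cki-2 (chrII:7815352-7815552, plus strand) show both CDK inhibitors, and that at knl-1 (chrIII:8250377-8250577, plus strand) is the region of the highest-ranked 10 at these genes that held the T-box core. Capitals mark the words found among the 7 searched.
pcn-1: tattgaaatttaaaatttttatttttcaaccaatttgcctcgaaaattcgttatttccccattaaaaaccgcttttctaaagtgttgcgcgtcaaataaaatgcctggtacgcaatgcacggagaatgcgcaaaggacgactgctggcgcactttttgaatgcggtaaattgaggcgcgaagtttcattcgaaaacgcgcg
fzr-1: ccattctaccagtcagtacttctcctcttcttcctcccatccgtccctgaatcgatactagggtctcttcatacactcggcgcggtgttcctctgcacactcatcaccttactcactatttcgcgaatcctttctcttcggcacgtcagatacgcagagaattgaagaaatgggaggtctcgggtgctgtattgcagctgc
cki-1: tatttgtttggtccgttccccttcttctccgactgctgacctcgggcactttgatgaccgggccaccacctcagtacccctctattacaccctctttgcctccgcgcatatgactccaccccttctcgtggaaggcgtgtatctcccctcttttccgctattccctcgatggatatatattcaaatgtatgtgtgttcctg
cki-2: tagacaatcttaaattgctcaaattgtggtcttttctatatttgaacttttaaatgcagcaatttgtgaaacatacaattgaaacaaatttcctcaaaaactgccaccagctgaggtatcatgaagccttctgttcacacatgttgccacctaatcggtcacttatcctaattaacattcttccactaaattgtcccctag
knl-1: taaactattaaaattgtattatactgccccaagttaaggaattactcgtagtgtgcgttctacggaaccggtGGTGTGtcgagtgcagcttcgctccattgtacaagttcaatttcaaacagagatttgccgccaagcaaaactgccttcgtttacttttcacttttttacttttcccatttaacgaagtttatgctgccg

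The words searched on either strand were GGTGTG and the full T-box site AGGTGTGA, which contains it, the words GAGAGA and GGGCGG, and the E2F words TTCCCGC, TTTGGCGC and TTTCGCGC. Of the 10 regions at these genes with a q-value below 0.05, 1 held GGTGTG, at knl-1, with its first base 28 bp before the summit on the gene's strand. Over all 882 pooled regions at that q-value the share was 10.5%. GAGAGA was in 1 of the 10, at lin-35, 27 bp past the summit on the opposite strand, against 30.3% of the 882. None of the 10 held GGGCGG (12.4% of the 882), AGGTGTGA (1.02%), TTCCCGC (4.08%), TTTGGCGC (0.907%) or TTTCGCGC (2.15%). Of all 73 regions at the 37 genes, 10 held GGTGTG (13.7%, against 6.89% of all 16355 pooled regions), 2 held AGGTGTGA (2.74% against 0.569%) and 11 held GAGAGA (15.1% against 16.3%). GGGCGG was in 5 of the 73 (6.85% against 6.82%), TTTCGCGC in 3 (4.11% against 1.33%), TTCCCGC in 2 (2.74% against 3.65%) and TTTGGCGC in 1 (1.37% against 1.13%). The median GC content was 40.3% for the 73 windows, 43.5% for the 10 and 46.3% for the 882. These are matches of letters and do not show what bound there.

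The deposited lists give a signal and a q-value for each region, both the authors' own. The signal is not scaled between lists, so it was used to rank regions within a list, and the percentile of a region is the percent of its list with a lower signal. The pooled list held 16355 regions with signals from 27.5, of which 882 had a q-value below 0.05, and the thresholded list held its 521 highest. Replicate 1 had 24167 regions, 973 of them at q below 0.05, and replicate 2 had 20865 and 819. The lists include background on purpose. They hold no read counts, and the sequencing depth of either library is unknown. The design has 1 group, and the genes were chosen with earlier results of these data known, so no test was made. Counts are set beside the same counts over all protein-coding genes.

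Thresholded regions lay at 4 of the 37 genes (10.8%): cye-1, lin-35, pcn-1 and fzr-1. Among all protein-coding genes 3.33% had such a region. The pooled list placed a region at q below 0.05 at 8 genes (21.6%, against 5.38% of all genes), which adds cki-1, cki-2, cdc-25.2 and knl-1. In replicate 1 the count was 10 (27%, against 5.72%), with mcm-7 and cdk-1 added to those 8. In replicate 2 it was 5 (13.5%, against 5.05%): cye-1, lin-35, fzr-1, cki-1 and cdc-25.2. The requirement of a q-value below 0.05 in both replicates with summits within 100 bp left cye-1 alone (2.70%, against 2.65%), a share near that of all genes. When any overlap of the regions counted, cki-1, fzr-1 and lin-35 joined it. Without thresholded regions within 200 bp of a tRNA, snoRNA, snRNA or rRNA gene, 3 genes were left (8.11%, against 2.26%). Any pooled region, background included, was found at 26 genes (70.3%, against 51.0%).

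**Figure D1:**
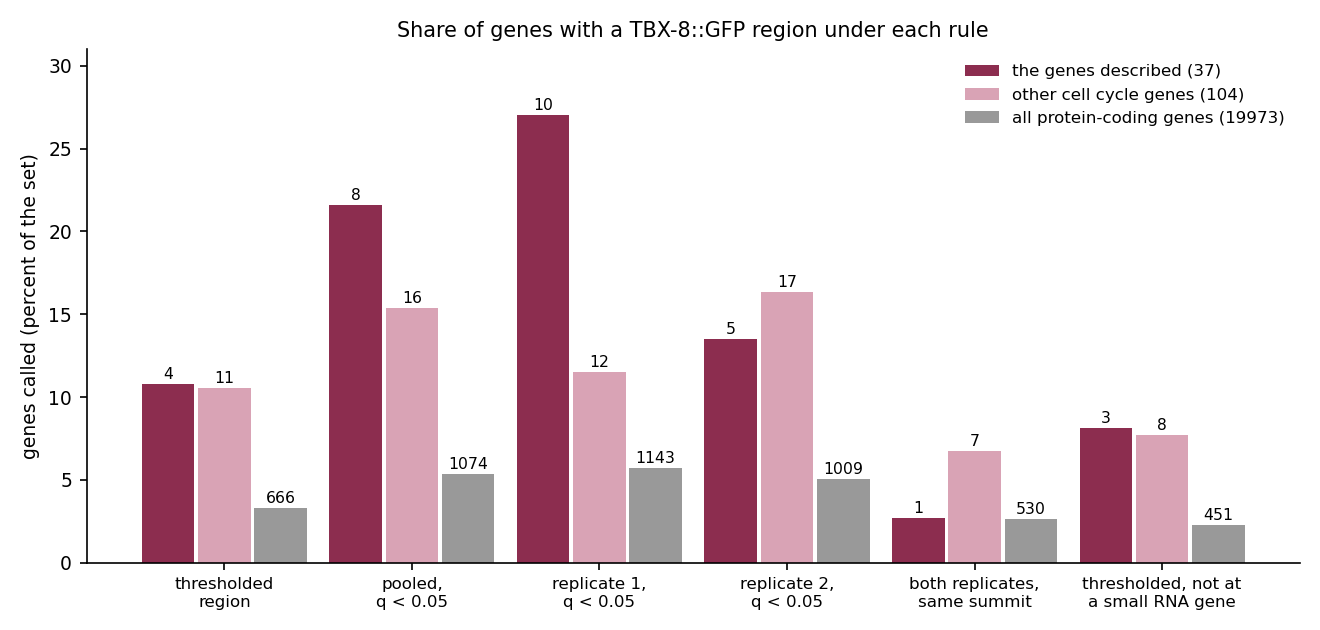
Bars give the percent of genes called under each rule (vertical axis, from 0) for the 37 genes described, 104 other cell cycle genes and all 19973 protein-coding genes, with the number of genes above each bar. The share of the 37 genes ranged from 27% for replicate 1 at q below 0.05 to 2.70% for regions with the same summit in both replicates, where that of all genes was 2.65%.

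The windows of these genes were somewhat longer than usual, with a median of 4881 bp against 4182 bp over all protein-coding genes, and this was not adjusted for. Per megabase of window, the 37 genes had 323 pooled regions and 17.7 thresholded regions, against 167 and 5.30 for all genes. Among the 26 genes with a pooled region, the strongest region had a median percentile of 85.1, against 63.4 for all genes with a region. This is the highest value over all regions of a gene, and the number of regions was not adjusted for. Of the 37 genes, 15 had 2 or more pooled regions, against 23.4% of all genes. The same median was 71.1 against 66.3 in replicate 1 alone, and 84.2 against 64.6 in replicate 2 alone. Of the 73 regions, 35 were upstream of the gene, 23 in introns, 11 in coding exons, 2 in a 3′ UTR exon and 2 downstream. The strongest region lay within 500 bp upstream of a start at 13 of the 26 genes. A start of another protein-coding gene was nearer than any start of the gene itself for 15 of the 73 regions and for 6 of the 26 strongest. In such cases the region cannot be credited to either gene from its position. The places and the distances to starts are not set beside those of all genes, so they do not show a trait of these genes.

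**Figure D2:**
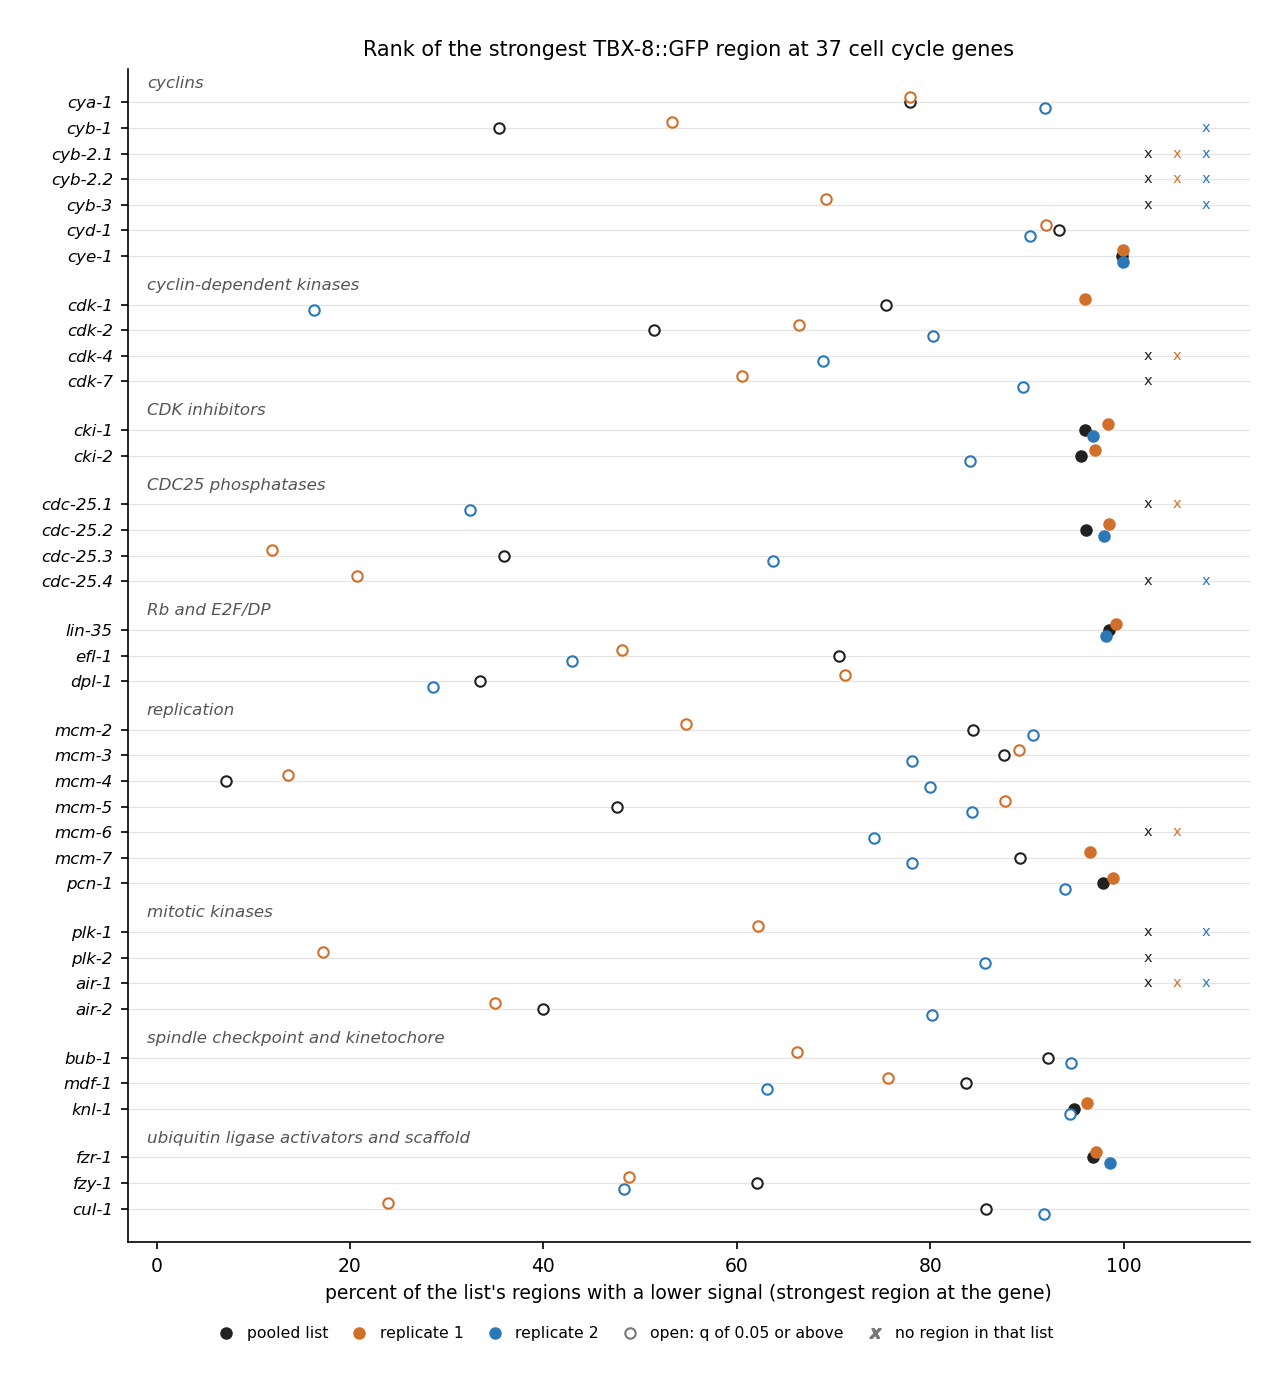
The horizontal axis gives the percent of a list's regions with a lower signal than the strongest region at each gene, for the pooled list (black), replicate 1 (orange) and replicate 2 (blue). Filled points have a q-value below 0.05, and a small x at the right marks a list with no region at that gene. The CDK inhibitors lie at 84.1 or above in all 3 lists, and so do cye-1, cyd-1, cdc-25.2, lin-35, pcn-1, knl-1 and fzr-1. The 3 lists differ widely for cdk-1 (75.4, 96.0 and 16.3).

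Among the cyclins, cye-1, which encodes cyclin E, the partner of CDK-2 at the entry to S phase, had the highest region of all 37 genes. Its summit lay on chromosome I (6781562 to 6782021) with a pooled signal of 247, rank 22 of 16355 and a q-value of 0.00448. The signal was 129 in replicate 1, rank 24, and 118 in replicate 2, rank 21. Both replicates thus placed it among their highest regions. The summit was in an intron of 859 bp, 986 bp downstream of the nearest cye-1 start and 11 bp from the tRNA gene C37A2.t1, a tRNA-Cys gene of 72 bp that lies inside the intron on the same strand (6781803 to 6781874). Of the 13 nuclear tRNA-Cys genes, 11 had a pooled region within 200 bp and 4 a thresholded one. The copy in cye-1 has the same sequence as 11 others, among them all with a thresholded region. Those are F42D1.t1 with a signal of 117, F53F8.t1 with 101 and R04E5.t5 with 83.2, all below the signal in cye-1. Whether reads that match several copies add to these regions was not tested. Across the genome, 195 of the 521 thresholded regions (37.4%) but 509 of the 16355 pooled regions (3.11%) lay within 200 bp of such a small RNA gene.

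Besides the main region, cye-1 had 2 weaker regions. One was 356 bp upstream of the gene, with a pooled signal of 47.4, and its nearest start was that of pqn-21, at 292 bp. Replicate 1 held it with a signal of 26.3 at a q-value of 0.387, and replicate 2 had no region with a summit within 100 bp. The other, of 33.2, overlapped the main region and spanned the tRNA gene, with its summit in a coding exon 122 bp from that gene. Replicate 2 held it with a signal of 34.1 (rank 745, q = 0.0437), and replicate 1 had no summit within 100 bp of it. These 2 and the main region are the only ones of the 73 within 2000 bp of a tRNA or snoRNA gene.

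The other cyclins ranked lower. At cyd-1, which encodes cyclin D, the G1 cyclin, 8 pooled regions lay in a window of 14527 bp. The strongest was 1778 bp upstream, with a pooled signal of 58.6 (rank 1100, q = 0.0969), 30.4 in replicate 1 (q = 0.191) and 26.3 in replicate 2 (q = 0.276), so no list put it below 0.05. The strongest region at cya-1 (cyclin A) had a pooled signal of 42.9 and a percentile of 77.9, and that at cyb-1 (cyclin B) one of 32.0 and 35.4. The mitotic B-type cyclin gene cyb-3 had only regions of replicate 1, the strongest with a percentile of 69.2. No list held a region at cyb-2.1 or cyb-2.2.

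No region at the 4 CDK genes reached a q-value below 0.05 in the pooled list. Of all genes 5.38% had such a region, so 0 of 4 does not set the CDK genes apart. The strongest pooled region, at cdk-1, the mitotic kinase, had a signal of 41.8. It lay 634 bp upstream of the cdk-1 start and 234 bp from a start of iff-1. Replicate 1 gave it 36.4 (rank 976, q = 0.0497), just inside the threshold, whereas replicate 2 had no region with a summit within 100 bp and only a region of 14.5 elsewhere in the window. At cdk-2, the partner of cyclin E, the pooled signal was 34.9, in an intron. For cdk-4, the partner of cyclin D, and cdk-7, which activates other CDKs, the pooled list had no region, and the strongest replicate 2 regions had percentiles of 68.9 and 89.6. Replicate 1 had a region of percentile 60.5 at cdk-7 and none at cdk-4.

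Both CDK inhibitor genes had a pooled region at q below 0.05. Of all genes 5.38% had such a region, and 2 genes are too few to set the role apart. The 2 genes are neighbours on chromosome II and encode proteins of the CIP/KIP family that hold cells in G1. Of the 2, cki-1 is the main brake of this kind in development. At cki-1 the strongest region was 226 bp upstream, printed above, with a pooled signal of 70.1 (rank 658, q = 0.0160), 47.8 in replicate 1 (rank 391) and 29.4 in replicate 2 (rank 1296, q = 0.138). A second region 881 bp past the start, just downstream of the short gene, had a pooled signal of 68.1 (q = 0.0191). Replicate 2 placed it at 33.7 (rank 791, q = 0.0449), and replicate 1 had an overlapping region of 42.5 (rank 565) whose summit instead matched another pooled region at 1104 bp, of 46.0. A distal region 1905 bp upstream, inside the noncoding RNA gene T05A6.15, had a pooled signal of 50.6 and was at q below 0.05 in replicate 2 alone (35.4, rank 657).

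In all, cki-1 had 7 pooled regions in 4001 bp, or 1.75 per kb of window, the densest of the 37 genes. Several of the 7 overlapped one another, and together they covered 3 separate stretches. Of all protein-coding genes, 0.831% had 7 or more pooled regions, whatever the length of their window. At cki-2 there were 4. The strongest was 1047 bp upstream and 41 bp from the noncoding RNA gene T05A6.19, with a pooled signal of 67.3 (rank 729, q = 0.0226), 39.8 in replicate 1 (rank 715) and 23.5 in replicate 2 (rank 3320, q = 0.416). Both upstream regions were therefore at q below 0.05 in replicate 1 and not in replicate 2. The 3 others at cki-2 lay in the gene body with pooled signals from 31.1 to 37.4.

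**Figure D3:**
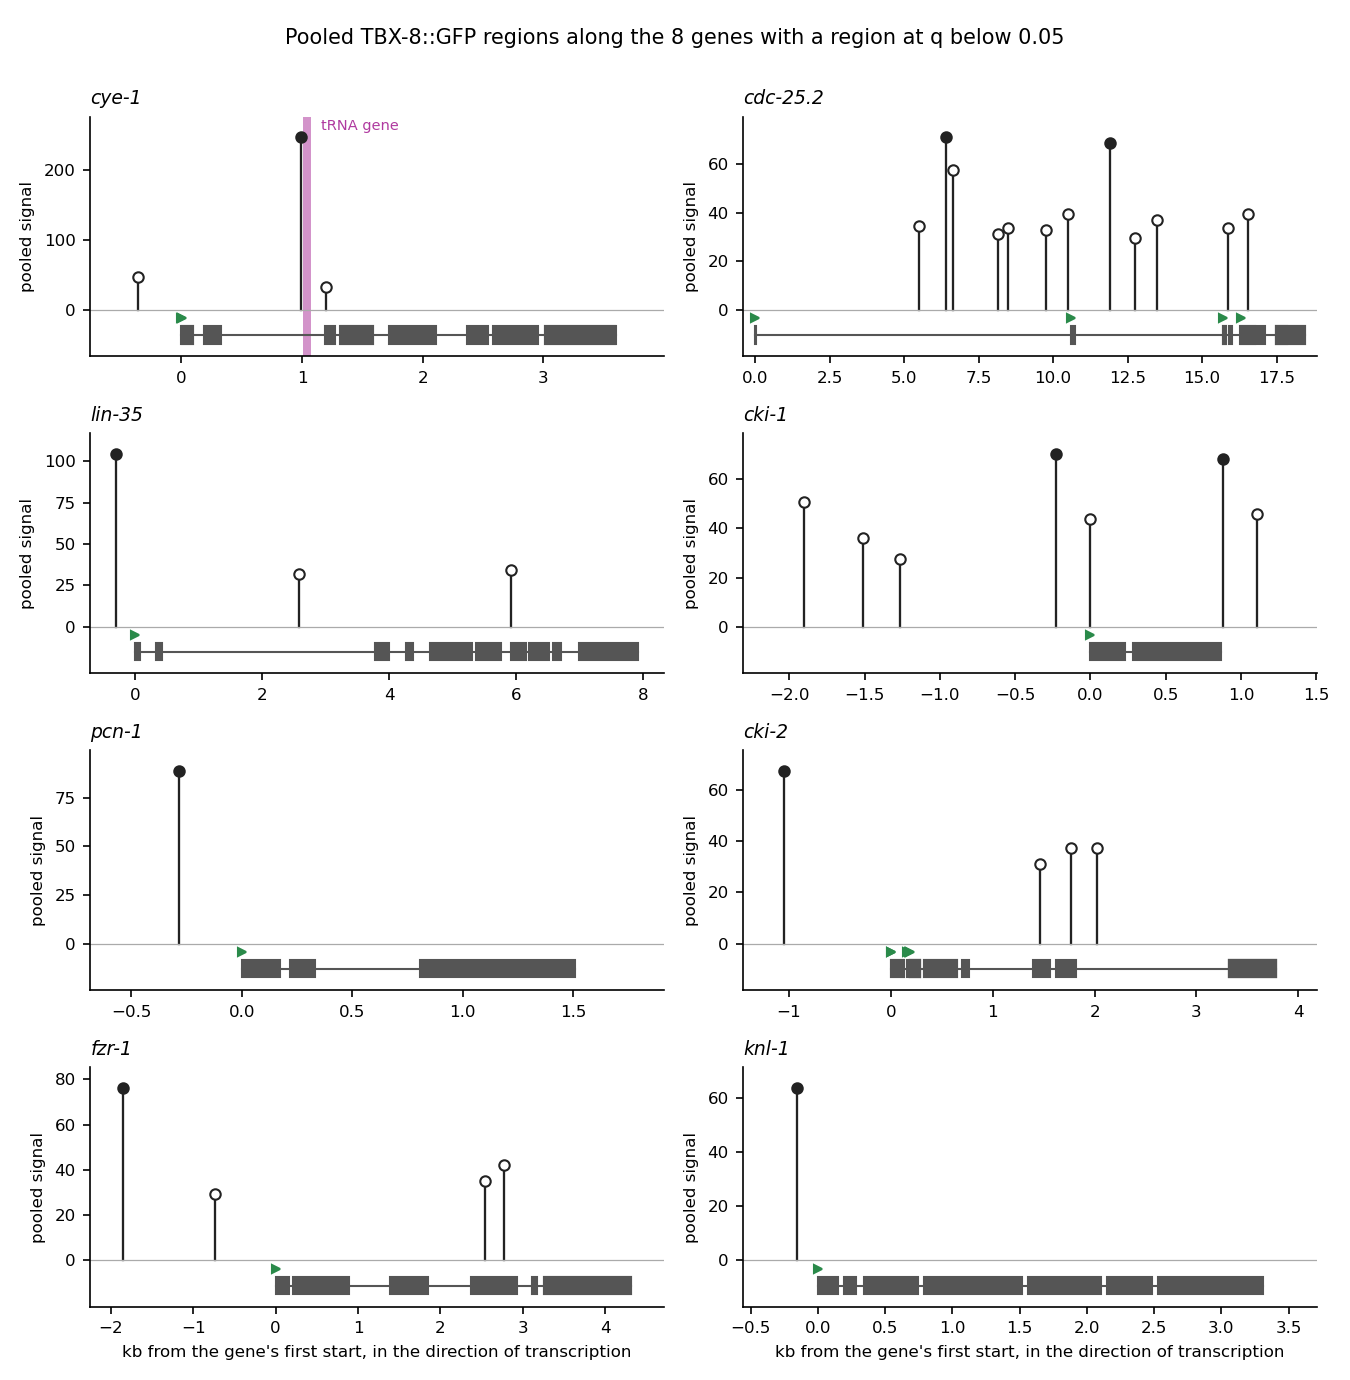
Each panel shows 1 gene with a pooled region at q below 0.05, with the distance in kb from its first start along the direction of transcription on the horizontal axis and the pooled signal of each region on the vertical axis, at a separate scale per panel. Filled circles mark q below 0.05, grey boxes exons, green arrowheads transcript starts and the purple band the tRNA gene. The cye-1 region stands at the tRNA gene, and the lin-35, pcn-1 and knl-1 regions stand just upstream of the start. At cdc-25.2 the 12 regions are spread mostly over its introns.

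Of the CDC25 phosphatase genes, cdc-25.2 stood out by number, with 12 pooled regions, in 10 separate stretches, in a window of 20457 bp, the longest of the 37. Of all protein-coding genes, 0.150% had 12 or more. Per kb of window cdc-25.2 had 0.587, below cki-1, cya-1, cdk-1, cki-2, mcm-7 and fzr-1. Of its 12 regions, 2 were at q below 0.05, both in introns. The first had a pooled signal of 71.0 (rank 637, q = 0.0134) and lay 4203 bp upstream of the nearest start, in an intron of a long noncoding transcript of the gene. Its signal was 28.7 in replicate 1 (q = 0.264) and 41.0 in replicate 2 (rank 419, q = 0.0108). For the second, 1287 bp downstream of a start, the pooled signal was 68.6 (rank 696, q = 0.0180), with 49.2 in replicate 1 (rank 362) and no overlapping region in replicate 2. The intronic region at q below 0.05 thus differed between the replicates. Another, 57.4 in the pooled list (q = 0.120), lay beside the first.

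The other CDC25 genes had little. At cdc-25.3 the pooled signal was 32.1, at a percentile of 36.0. The early embryonic gene cdc-25.1 had only a replicate 2 region, of percentile 32.4, and cdc-25.4 only a replicate 1 region, of percentile 20.7.

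The only Rb gene of the worm, lin-35, had the highest region at these 37 genes away from small RNA genes. Its summit was 310 bp upstream of lin-35 on chromosome I, with a pooled signal of 104 (rank 242, q = 0.00448), 64.7 in replicate 1 (rank 184) and 41.8 in replicate 2 (rank 388, q = 0.00903). The replicate 2 summit was over 100 bp away, in an overlapping region, so the gene was called in both replicates but not at the same summit. A start of vps-51, which runs the other way, was nearer, at 108 bp. The pooled region thus lies between both genes, and was assigned to vps-51 alone when only the nearest start counted, whereas the replicate 2 region was then still assigned to lin-35. Among its partners, efl-1, an E2F gene, had a pooled signal of 39.9 at 148 bp upstream (percentile 70.6) and dpl-1, the DP gene, one of 31.7 at 270 bp upstream (percentile 33.5). Neither was at q below 0.05 in any list.

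Of the replication genes, pcn-1, which encodes PCNA, the sliding clamp of DNA polymerase, had the strongest region. It lay 286 bp upstream of the start on chromosome IV, printed above, with a pooled signal of 88.8 (rank 351, q = 0.00713). Replicate 1 had it at 54.5 (rank 280) and replicate 2 at 29.6 (rank 1271, q = 0.129). The call in the thresholded list therefore goes with a high rank in replicate 1 and a lower one in replicate 2. The nearest start of another protein-coding gene, wrt-5, was 840 bp away, and no small RNA gene was near.

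The genes of the MCM helicase, which is loaded at origins before S phase and unwinds DNA there, ranked lower. At mcm-7 the strongest region was 240 bp upstream, with a pooled signal of 51.4 (rank 1760, q = 0.248), 38.0 in replicate 1 (rank 838, q = 0.0376) and no region within 100 bp of that summit in replicate 2. At mcm-3 the signal was 49.5 in the pooled list (rank 2022, q = 0.292), 27.5 in replicate 1 and 21.7 in replicate 2, 149 bp upstream and 60 bp from the start of C25D7.15. Pooled signals at mcm-2, mcm-5 and mcm-4 were 46.7, 34.1 and 28.2, the last at a percentile of 7.18. At mcm-6 the pooled list and replicate 1 had no region, and replicate 2 had 2, the stronger at a percentile of 74.2. The 6 MCM genes thus ranged from no pooled region to the 89.2 percentile of mcm-7, and 1 of them reached q below 0.05, in replicate 1.

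The mitotic kinase genes had the fewest regions of any role. Of 4 genes, 1 had a pooled region: air-2, the Aurora B gene, with a signal of 32.7 at a percentile of 40.0. For the Polo kinase gene plk-1 there was a region in replicate 1 alone (percentile 62.2), and for plk-2 both replicates had one (17.3 and 85.6) but the pooled list did not. At air-1, the Aurora A gene, no list had a region. None of the 4 was at q below 0.05 in any list. Of all genes 51.0% had a pooled region and 5.38% had one at q below 0.05, so 0 of 4 called does not set these genes apart.

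The 3 spindle checkpoint and kinetochore genes all had a pooled region, background included. Of all genes 51.0% had one, so with 3 genes this does not set the role apart. The kinetochore scaffold gene knl-1 had 1, printed above, 155 bp upstream of its start, with a pooled signal of 63.6 (rank 847, q = 0.0408), 36.9 in replicate 1 (rank 928, q = 0.0469) and 30.2 in replicate 2 (rank 1170, q = 0.11). It was the weakest of the pooled regions at q below 0.05 at these genes, and cyd-1 at 58.6 the strongest outside. At bub-1, a checkpoint kinase gene, the region 283 bp upstream had a pooled signal of 56.1 (rank 1273, q = 0.138), 21.2 in replicate 1 (rank 8169) and 30.3 in replicate 2 (rank 1148). At mdf-1, the worm MAD1 gene, the pooled signal was 46.3 at 356 bp upstream, with 23.2 in replicate 1 and 18.9 in replicate 2. A second mdf-1 region, of 35.6, was 93 bp from the histone gene his-41.

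Of the ubiquitin ligase genes, fzr-1 was in the thresholded list. It encodes the CDH1-type activator of the anaphase-promoting complex, which keeps cyclins low in G1. Its region was 1848 bp upstream, near the edge of the window, and 664 bp from a start of sqv-8. The pooled signal was 76.1 (rank 514, q = 0.00876), just inside the thresholded list, where the next of these genes outside was cdc-25.2 at 71.0. Replicate 1 had an overlapping region of 40.1 (rank 693, q = 0.0267) and replicate 2 one of 46.9 (rank 293, q = 0.00448), while the replicate 2 region matched within 100 bp had 23.8. Both replicates thus held signal over the stretch, at summits that differed. At cul-1, the scaffold of the SCF ligase, the pooled signal was 47.9 (rank 2326, q = 0.340) at 523 bp upstream, with 14.9 in replicate 1 and 21.1 in replicate 2. At fzy-1, the CDC20-type activator that acts in mitosis, it was 37.4 at 481 bp upstream.

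Agreement between replicates was uneven over the 10 regions at q below 0.05. A summit within 100 bp was found for 8 in replicate 1, for 8 in replicate 2 and for 6 in both, and 9 overlapped a region in both. Of those 6, cye-1 alone had a q-value below 0.05 in both. Replicate 1 gave the higher percentile of the strongest region at pcn-1 (98.8 against 93.9) and at cki-2 (97.0 against 84.1), and replicate 2 did at fzr-1 (98.6 against 97.1). Of the 11 genes with no pooled region, 8 had a region in at least 1 replicate, 2 in both, and 3 had none in any list. These counts are not set beside those of all 882 pooled regions at q below 0.05 or of all genes. They therefore do not show a trait of these genes.

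**Figure D4:**
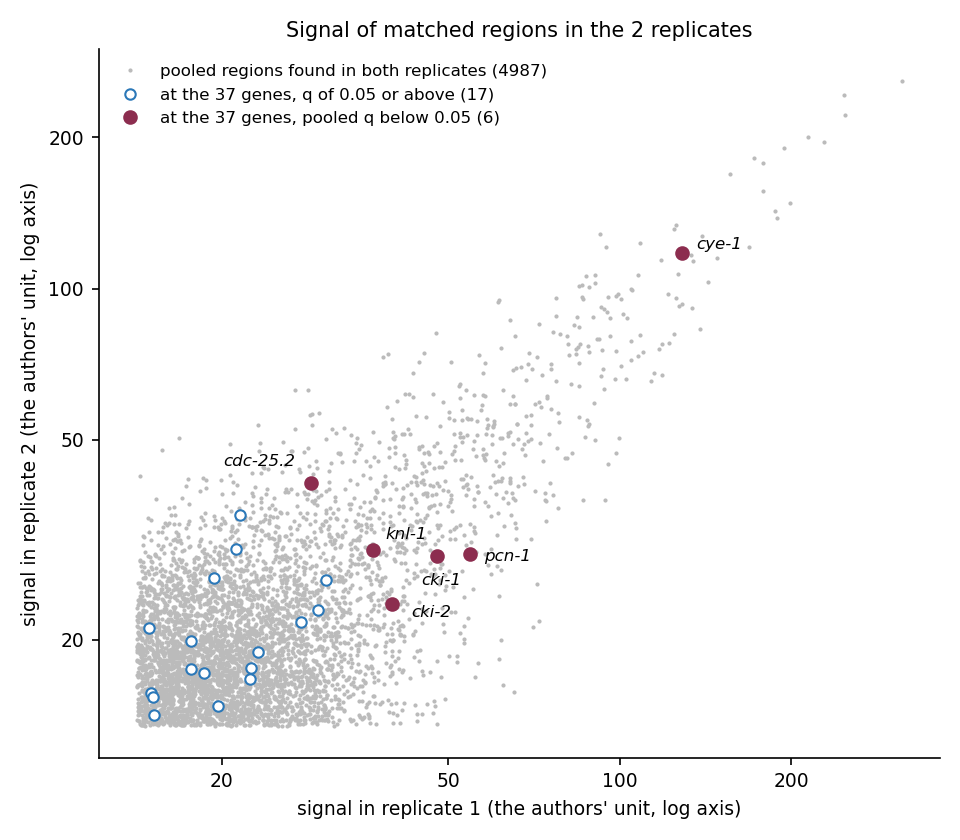
Each point is a pooled region with a summit within 100 bp in both replicates, with its signal in replicate 1 (horizontal, log axis) and in replicate 2 (vertical, log axis), in the authors' unit. Grey points are all 4987 such regions, red points the 6 of these genes at a pooled q below 0.05 and open blue points the 17 others at these genes. The cye-1 region (129 and 118) lies apart from the rest of the genes described, whose red points fall between 28.7 and 54.5 in replicate 1.

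A longer list of 105 other cell cycle genes, of which 104 were in the annotation, was scored in the same way. Thresholded regions were at 11 of them (10.6%), against 10.8% of the 37 genes, and pooled regions at q below 0.05 at 16 (15.4%, against 21.6%). In replicate 1 the shares were 11.5% against 27% and in replicate 2 they were 16.3% against 13.5%, so which list of genes had more calls differed between the replicates. The call in both replicates at the same summit was made for 7 (6.73%), against 2.70% of the 37 genes and 2.65% of all genes. By role, 6 of 34 checkpoint, kinetochore and spindle genes had a thresholded region, against 3.33% of all protein-coding genes. The count was 2 of 18 for the anaphase-promoting complex, cohesion and condensin. For replication origins and forks it was 2 of 34, and for other kinases and regulators 1 of 18. In the last 3 roles the counts are too small to read against the 3.33%, and the first role rests on 6 genes. Of those 6, the regions at knl-3, sas-4 and tpxl-1 lay nearer a start of another gene. That at mdf-2 lay 67 bp from a tRNA gene.

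The highest was mix-1, a condensin gene, with a pooled signal of 260 in an intron 24 bp from a snoRNA gene. It was followed by the centriole gene sas-5 (146, 63 bp from its own start), tim-1 (109, inside a snRNA gene), the anaphase-promoting complex gene emb-1 (107), the kinetochore gene knl-3 (103) and the centriole gene sas-4 (101). Below these came lin-54 (98.3), the pericentriolar gene spd-5 (84.7), tpxl-1, an activator of Aurora A (83.1), and the checkpoint gene mdf-2 (77.4, 67 bp from a tRNA gene). At 7 of these 10 a start of another gene was nearer than their own. It was 59 bp away at emb-1, 64 bp at sas-4, 66 bp at lin-54, where it belongs to the ribosomal protein gene rpl-12, 192 bp at tim-1, 219 bp at knl-3, 352 bp at tpxl-1 and 3334 bp at mix-1. As at cye-1 and lin-35, several of the highest regions of cell cycle genes thus lay at a small RNA gene or between neighbouring genes.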

How the data were processed

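ChIP-seq of TBX-8::GFP was done on 2 biological replicates of whole embryos, 1 group. The authors deposited a region list per replicate, a list for the pooled replicates and a thresholded list, on ce11 per the labels; for the aligner and peak caller, a name is not given in the sources used here. Each region carries the authors' signal value, whose definition is not given in the sources used here, and a deposited −log10 q-value. All 521 thresholded regions are the highest of the pooled list. Depth is unknown, so no interval is given, and p-values were not computed.

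Regions were assigned by summit to protein-coding genes (Ensembl release 115, 32512 transcripts) in the gene body or within 2000 bp of a transcript start, and summits within 100 bp matched between lists. Sequences came from RefSeq WBcel235, the same assembly as ce11. The thresholds were q below 0.05 and 200 bp for small RNA genes. The assignment was tested on simulated data. Python 3.11.15, numpy 2.4.6, pandas 2.3.3 and matplotlib 3.10.9 were used. The genes, lists and words were chosen with earlier results of these data known. Named genes are those with a thresholded region or a pooled q-value below 0.05, the 5 next by pooled signal, the others by role, and up to 10 of the longer list. No mean or SD of the signal over the replicates is given, since the lists are not scaled to each other. An SD of the median percentile between the replicates was used only to sort the alternatives. Alternatives covered the window, the threshold, the nearest start, small RNA regions, the match rule and each replicate alone.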

Additional observations from a re-analysis of the deposited data

How the results depend on the processing

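Of 49 alternatives of the counts and of the median percentile, 31 stayed within 1.5 times the reported count or within 1 SD of the replicates (9.23 for the percentile) and 18 moved further. That SD rests on the medians of the 2 replicates, 71.14 and 84.2, which are themselves among the alternatives. With only the promoter (1000 bp upstream to 200 bp downstream) counted, thresholded regions lay at 2 of the 37 genes in place of 4 (1.70% of all genes), pooled regions at q below 0.05 at 4 in place of 8 (2.76%) and those of replicate 1 at 6 in place of 10 (2.81%). Those of replicate 2 lay at 1 in place of 5, which is 2.70% against 2.62% of all genes, so no excess was left there, and those at the same summit in both at 0 in place of 1 (1.35%). With each region given to the nearest start alone, thresholded regions lay at 2 genes, cye-1 and pcn-1 (2.47% of all genes), and those away from small RNA genes at 1 in place of 3 (1.56%). Stricter thresholds (the 260 highest regions, or q below 0.01) gave 2 for thresholded regions (1.78% of all genes), 1 away from small RNA genes (0.996%), 4 for the pooled list (3.33%), 5 for replicate 1 (3.19%) and 3 for replicate 2 (2.62%). Windows of 5000 bp gave 8 for replicate 2 (8.60% of all genes) and 2 for the same summit in both, where mdf-1 joined cye-1, a share near the 4.77% of all genes. Without regions at small RNA genes the count at the same summit in both was 0 (1.66% of all genes), and by overlap in place of summits it was 4 (2.96%). To leave out 1 replicate, the other replicate's own list stood in for the pooled list, and its 521 highest regions for the thresholded ones. Regions were not called, pooled or thresholded anew. This gave 4 to 5 genes with a region among the 521 highest, but not the same genes. Without replicate 1 (3.35% of all genes) pcn-1 was lost and cdc-25.2 came in, and without replicate 2 (3.28%) fzr-1 was lost and cdc-25.2 and cki-1 came in, which leaves cye-1 and lin-35 in both. The counts at q below 0.05 were then those given above for replicate 2 (5 genes, 5.05% of all genes) and replicate 1 (10 genes, 5.72%). Away from small RNA genes, 3 genes had a region among the 521 highest without replicate 1 (2.35% of all genes). Without replicate 2 the count was 4 (2.25%). The median percentile was 71.14 without replicate 2 (66.3 for all genes) and 84.2 without replicate 1 (64.6). The pooled calls at pcn-1, cki-2 and knl-1 had a matching region in replicate 2, but not at q below 0.05 (0.129, 0.416 and 0.110). The cause of these shifts was not tested. Of 61 alternatives for the strongest signal at 13 genes, 52 gave the same region and 9 another, at cye-1, fzr-1, cdc-25.2, cki-2 and cyd-1; 4 left no region (cki-2 and cyd-1 with the promoter alone, lin-35 and mcm-3 with the nearest start). No paired analysis was possible because there is 1 group. The unknown depth limits what a missing region shows.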
